A study of Oncorhynchus mykiss with 9 samples.

Results

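NOD-like receptors are proteins of the cytosol that carry a NACHT domain, which binds nucleotides, and usually leucine-rich repeats that sense ligands. In mammals, NOD1 and NOD2 bind fragments of the bacterial cell wall and signal to NF-κB through the kinase RIPK2, members of the NLRP type assemble inflammasomes that activate caspase-1, and NLRC3 and NLRP12 restrain NF-κB signalling. Teleost fish carry large expanded sets of genes that resemble NLRC3, NLRP3 and NLRP12, and most of these have no known ligand. The genes described here were taken from the deposited tables by the words of their protein description (NLRC, NLRP, NLR family, NACHT or nucleotide-binding oligomerization). Of 46585 genes, 144 carried such a description, and 133 of them had at least 5 reads in at least 1 library, among 31691 genes kept by the same limit. By description, 65 were NLRC3-like (70 before the filter), 23 NLRP3-like (24), 19 NLRP12-like (20) and 26 of other kinds (30). The last group held 13 NLRP1-like genes, 4 NLRC5, 4 NOD1-like, 2 NOD2, 1 NLRX1-like and 2 genes with NACHT and WD repeat domains. A description is that of the best matching trout protein, so a subfamily name stands for similarity and not for a tested function.

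The genes were measured by RNA-seq in splenic IgM+ B cells of rainbow trout of 50 to 70 g. Leukocytes were cultured for 24 h with TNP-LPS, with TNP-KLH, or with no antigen (control), and IgM+ B cells were then isolated by cell sorting, so each library holds B cells that were stimulated beside the other leukocytes of the spleen. TNP is a small hapten, LPS a component of the bacterial outer membrane that serves as a thymus-independent carrier, and KLH a mollusc protein that serves as a thymus-dependent carrier. Each condition had 3 libraries, numbered 1 to 3, made with a stranded total RNA kit and read as single reads of 50 nt. The sample labels give the antigen dose as 5 mg/ml and the methods as 5 µg/ml. Nothing in the sources used here states that the libraries of a condition came from separate fish. Each p-value thus sets a difference between conditions against the spread between these libraries, which may be technical.

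The libraries held 8080787 to 12164154 counts each, and members took 0.180 to 0.218% of them with TNP-LPS, 0.293 to 0.377% with TNP-KLH and 0.333 to 0.401% in control cells. The cells were sorted by surface IgM. The 3 genes of the B cell antigen receptor complex summed to 256 to 307 CPM (reads scaled to a common library size) with TNP-LPS. They summed to 434 to 696 CPM with TNP-KLH and 847 to 1090 CPM in control cells. For the 26 CD22 genes, also used as B cell markers, the sums were 393 to 489 CPM with TNP-LPS. They were 733 to 912 CPM with TNP-KLH and 614 to 881 CPM in control cells, which overlap. Hemoglobin genes took 0.228% of the counts in TNP-KLH replicate 2 and 0.703% in control replicate 2, and at most 0.0366% in the other 7 libraries. Libraries that shared a replicate number deviated together from their group means, least so control replicate 2 with TNP-LPS replicate 2, and not every member followed the number. A second fit with the number as a block (the blocked fit) is given where it moved a count of members or of listed genes by more than 1.5 times. For named members it is given where it changed a call against control. Members are counted against the share of all genes called by the same rule, since a share near it says nothing about the members. For counts at an unadjusted p that share was not counted, so they cannot be read against one. Duplicated trout genes can share reads, and the strand setting of the counting is not given in the sources used here, so near-identical or overlapping members may not be resolved. In sorted cells read in bulk, fewer cells that express a gene and less RNA per cell cannot be told apart.

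The summed reads of NOD-like receptor genes were lowest under TNP-LPS in all 4 subfamilies. Over all members, the summed level was 2260, 2298 and 1957 CPM in the TNP-LPS libraries, 3442, 3002 and 3026 CPM in the TNP-KLH libraries and 3744, 3367 and 3153 CPM in the control libraries. This made 2172 ± 187 CPM with TNP-LPS, 3157 ± 247 CPM with TNP-KLH and 3422 ± 299 CPM in control cells (mean ± SD, n = 3), with no overlap between TNP-LPS and either of the others, and with overlap between TNP-KLH and control. The NLRP12-like genes stood apart most clearly, at 287.8 ± 27.3 CPM with TNP-LPS, 460.6 ± 38.1 CPM with TNP-KLH and 613.6 ± 14.1 CPM in control cells, and no 2 of these groups overlapped. The NLRP3-like genes summed to 376.2 ± 50.1 CPM with TNP-LPS, 532 ± 38.2 CPM with TNP-KLH and 610.3 ± 45.4 CPM in control cells. The NLRC3-like genes summed to 1315 ± 122 CPM with TNP-LPS, 1839 ± 144 CPM with TNP-KLH and 1825 ± 217 CPM in control cells. The remaining members summed to 192.7 ± 22.4 CPM with TNP-LPS, 324.7 ± 67.8 CPM with TNP-KLH and 372.7 ± 89.4 CPM in control cells, with library number 3 lowest in each condition. Reads were spread over many members, since the 10 with the most reads held 27.7% of all member reads and 121 members averaged 10 reads or more per library. These sums describe the family and carry no test.

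**Figure D1:**
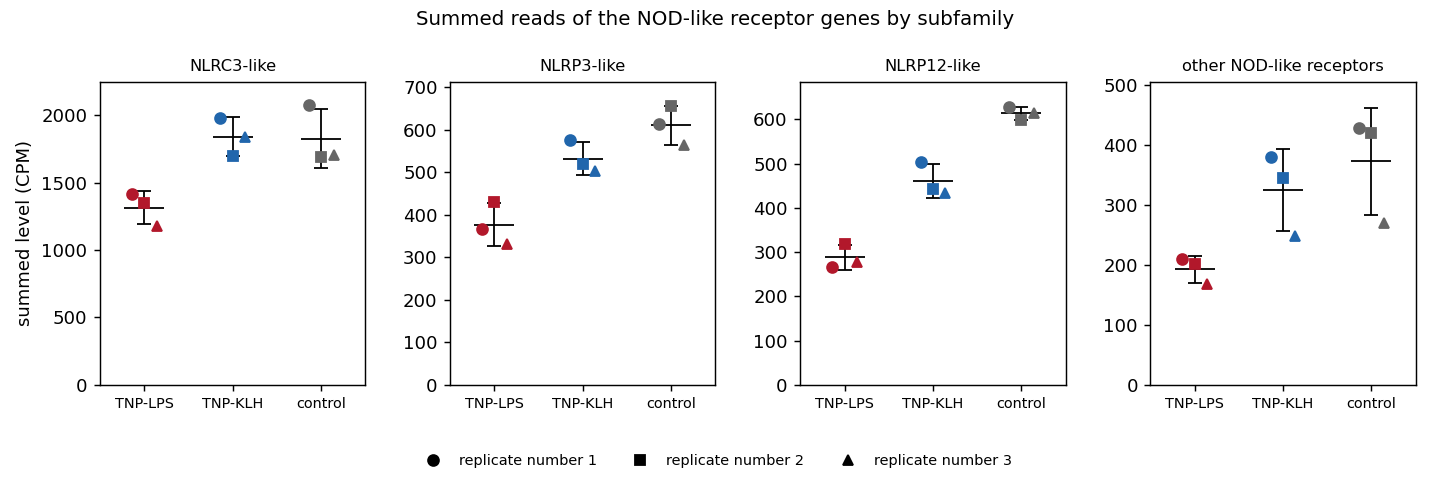
Summed level in CPM (y axis) of the members of each subfamily, with 1 point per library, its shape giving the replicate number, and bars for the mean and SD of the 3 libraries of TNP-LPS, TNP-KLH and control. NLRP12-like genes averaged 287.8 CPM with TNP-LPS, 460.6 CPM with TNP-KLH and 613.6 CPM in control cells, while NLRC3-like genes averaged 1315, 1839 and 1825 CPM in the same order.

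Tested across all genes with edgeR (quasi-likelihood, Benjamini-Hochberg), 28 of 133 members fell with TNP-LPS against control and 0 rose. Of all genes tested, 6.73% were called lower and 10% higher. The 28 comprised 10 of 65 NLRC3-like, 6 of 23 NLRP3-like, 7 of 19 NLRP12-like and 5 of 26 other members, with log2 fold changes of −2.43 to −0.70. In each of the 28 the TNP-LPS libraries lay below all control libraries, which the choice by a test on the same libraries favours. At an unadjusted p under 0.05, edgeR gave 45 members lower and 0 higher, with no share over all genes counted. The blocked fit called 47 members lower and 3 higher, against 14.2% lower and 16.3% higher over all genes, and its 47 included all 28. These 47 comprised 13 of 65 NLRC3-like, 10 of 23 NLRP3-like, 11 of 19 NLRP12-like and 13 of 26 other members. DESeq2 called 34 lower, again with all 28 among them, and 0 higher, against 9.10% lower and 12.2% higher over all genes. In 54 members every TNP-LPS library lay below every control library, and in 1 member above, where these shares were 15.2% and 17.4% over all genes. The median log2 fold change was −0.545 over the members and −0.0901 over all genes kept, and 119 of 133 members (89.5%) against 54.3% of all genes had a fold change below 0. Without TMM scaling factors the calls over all genes were 2305 higher and 2860 lower, against 3181 and 2133 with them, and those over the members 0 higher and 34 lower. Leaving out the 3 libraries numbered 2 lowered the count to 16 members, 15 of which were among the 28, and leaving out TNP-LPS replicate 3 lowered it to 18. Over all genes the lower calls went from 2133 to 756 and 1525 in these 2 fits. In 17 of the 28 the call held in every fit that left out 1 library.

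**Figure D2:**
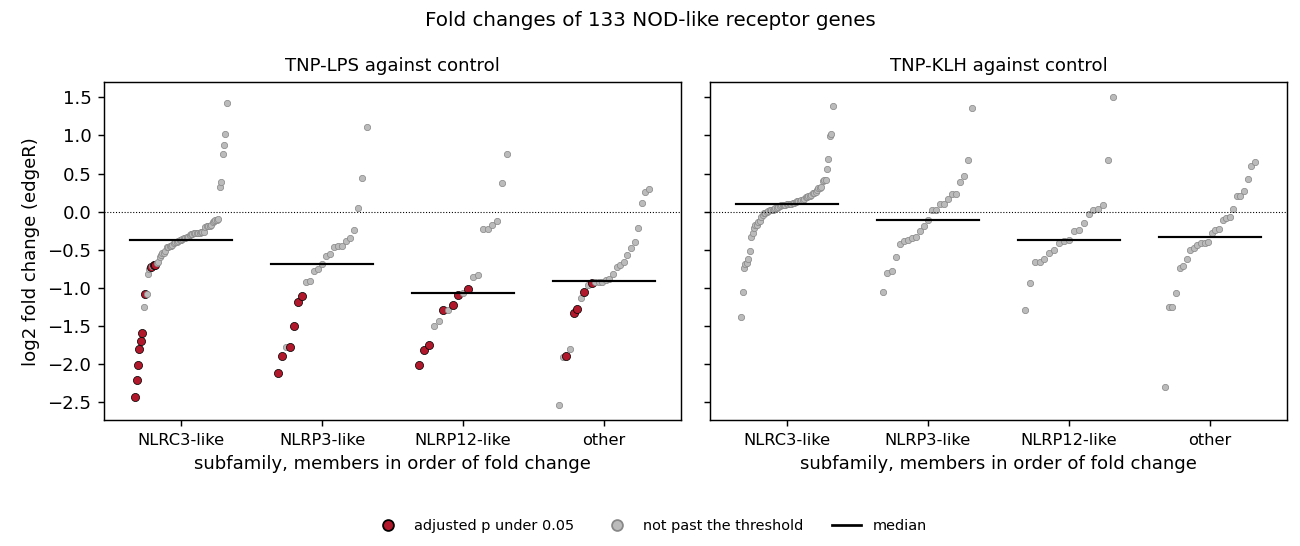
Log2 fold change by edgeR (y axis) of each of the 133 members, ordered by fold change within its subfamily (x axis), for TNP-LPS against control on the left and TNP-KLH against control on the right, with bars at the subfamily medians. Red points passed an adjusted p of 0.05: 28 members, all lower, with TNP-LPS, and 0 with TNP-KLH.

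Markers of B cells and of other cells were counted in the same comparison, to be read against the shares over all genes of 6.73% lower and 10% higher by edgeR and 14.2% and 16.3% in the blocked fit, and their part in the results on the members was not tested. Summed over 42 B cell genes the level was 2525 to 2716 CPM with TNP-LPS, 3413 to 3626 CPM with TNP-KLH and 4319 to 5038 CPM in control cells, and 7 of the 42 were called lower with TNP-LPS against control and 0 higher (14 and 0 in the blocked fit). Words for thrombocyte genes found 42, of which 9 were lower and 3 higher (15 and 4), with sums of 147.1 to 179.8 CPM with TNP-LPS, 163.6 to 247.2 CPM with TNP-KLH and 192.8 to 514.6 CPM in control cells. The words included von Willebrand, and only 2 genes were for integrin alpha-IIb and 3 for platelet glycoproteins. How far the others mark thrombocytes was not tested. Words for erythrocyte genes found 60, of which 8 were lower and 0 higher (33 and 1), but these 8 were 7 of 21 non-erythrocytic spectrins and 1 of 16 other genes with spectrin in the description. Of the 23 genes for hemoglobin, band 3 and erythroid aminolevulinate synthase edgeR called 0, with 3 at an unadjusted p under 0.05, 1 by DESeq2 and 22 lower in the blocked fit, and they summed to 31.7 to 390.3 CPM with TNP-LPS, 39.8 to 2372 CPM with TNP-KLH and 94.8 to 6887 CPM in control cells. DESeq2 gave no adjusted p for several of these genes, so its count does not cover all 23. Of 47 monocyte and macrophage genes 4 were lower and 0 higher (13 and 0), and their sums overlapped between TNP-LPS (566.9 to 1226 CPM) and control cells (953.9 to 1163 CPM). Of 19 T and NK cell genes and of 5 neutrophil genes edgeR called 0 in either direction, with 2 and 0 at an unadjusted p under 0.05, 0 by DESeq2, and 5 and 1 lower in the blocked fit. The T and NK cell genes summed to 18.7 to 60.3 CPM with TNP-LPS and 35.9 to 156.2 CPM in control cells. Sums of the neutrophil genes were 83.5 to 110.8 CPM with TNP-LPS and 74.1 to 94.4 CPM in control cells. The TNP-KLH libraries had 23.55 to 142.3 CPM and 162.4 to 203.5 CPM in the same order, so the neutrophil sums lay above both other conditions there. With TNP-KLH 1 neutrophil gene was higher and no other gene of these lists was called by edgeR in the main fit. The blocked fit called 4 B cell, 6 thrombocyte, 2 erythrocyte and 3 monocyte and macrophage genes lower with TNP-KLH. It also called 1 T and NK cell and 1 neutrophil gene lower, and 1 erythrocyte, 1 monocyte and macrophage and 1 neutrophil gene higher. Over all genes 4.23% were lower and 6.05% higher in that fit. DESeq2 called 3 B cell and 2 thrombocyte genes lower and 1 neutrophil gene higher, against 1.34% and 3.13% of all genes. Summed per kind, the defining markers were above 0 in every library. CD3 chains summed to 1.67 to 8.07 CPM with TNP-LPS and 2.88 to 42.0 CPM in control cells, the macrophage receptor gene MARCO was at 0.0928 to 0.211 CPM with TNP-LPS and 0.522 to 1.72 CPM in control cells, while the macrophage receptor gene CSF1R overlapped, with 0.928 to 6.68 CPM with TNP-LPS and 0.731 to 5.66 CPM in control cells. The platelet glycoproteins also overlapped, with 13.8 to 20.5 CPM with TNP-LPS and 15.9 to 71.9 CPM in control cells, whereas the thrombocyte integrin alpha-IIb was at 2.53 to 8.23 CPM with TNP-LPS and 14.9 to 76.2 CPM in control cells.

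Among NLRC3-like genes, which resemble the mammalian inhibitor NLRC3, the largest fall of those called was that of GSONMG00078396001, with 8.38, 17.4 and 24 CPM in the TNP-LPS libraries, 28.2, 35.3 and 40 CPM in the TNP-KLH libraries and 69.9, 101 and 98.7 CPM in the control libraries. Against control this was a log2 fold change of −2.43 with SE 0.36 and adjusted p = 0.00158 by edgeR, which became 0.0531 without the 3 libraries numbered 2. The 3 conditions did not overlap for this gene. GSONMG00006142001 had 20.5, 23.6 and 16.2 CPM with TNP-LPS, 44.2, 66.3 and 55.6 CPM with TNP-KLH and 69.3, 111 and 99 CPM in control cells (log2 fold change −2.21 with SE 0.26 and adjusted p = 5.49e-04 by edgeR). Again the conditions lay in separate ranges. GSONMG00053666001 had 11.3, 8.56 and 15.1 CPM with TNP-LPS and 34.3, 39.7 and 39.5 CPM in control cells (log2 fold change −1.69 with SE 0.25 and adjusted p = 0.00147 by edgeR). GSONMG00033692001 had 7.30, 6.55 and 9.56 CPM with TNP-LPS and 29.7, 13.4 and 27.6 CPM in control cells (log2 fold change −1.59 with SE 0.31 and adjusted p = 0.00691 by edgeR), where control replicate 2 was the lowest of its group. The other 6 NLRC3-like genes called lower had log2 fold changes of −2.02 (GSONMG00047283001, with under 6 CPM in every library) to −0.70 (GSONMG00055475001). Of these, GSONMG00047283001, GSONMG00055475001, GSONMG00030042001 and GSONMG00047294001 lost the call without control replicate 1, without TNP-LPS replicate 3 and without other single libraries, with edgeR adjusted p up to 0.156 over the settings tried. The median over the 65 NLRC3-like genes was −0.368, the mildest of the 4 subfamilies.

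The 3 NLRC3-like genes with the most reads did not pass the edgeR test with TNP-LPS. GSONMG00037095001, which held 5.27% of all member reads, had 158, 101 and 91 CPM with TNP-LPS, 194, 144 and 156 CPM with TNP-KLH and 244, 168 and 149 CPM in control cells. Its ranges overlapped, with replicate 1 highest in every condition (log2 fold change −0.68 with SE 0.28 and adjusted p = 0.142 by edgeR), and the blocked fit, which compares libraries of the same number, gave an adjusted p of 0.00546. GSONMG00010464001 had 84.9, 127 and 75.8 CPM with TNP-LPS, 106, 145 and 96.4 CPM with TNP-KLH and 92.8, 139 and 82.2 CPM in control cells, with replicate 2 highest in each (log2 fold change −0.12 with SE 0.29 and adjusted p = 0.827 by edgeR). GSONMG00026206001 had 75.2, 43.3 and 56 CPM with TNP-LPS and 121, 46 and 83.7 CPM in control cells (log2 fold change −0.52 with SE 0.39 and adjusted p = 0.423 by edgeR), and there replicate 2 was the lowest.

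NLRP3-like genes resemble the sensor of the best known inflammasome, the complex that activates caspase-1. GSONMG00036772001 had 11.2, 9.29 and 11.7 CPM in the TNP-LPS libraries, 35.7, 29.3 and 39.6 CPM in the TNP-KLH libraries and 39.4, 32.9 and 47.3 CPM in the control libraries (log2 fold change −1.90 with SE 0.22 and adjusted p = 4.53e-04 by edgeR). The TNP-KLH and control ranges overlapped, and both stood well above TNP-LPS. GSONMG00054925001, described as partial, showed the same order with 6.06, 6.13 and 5.57 CPM with TNP-LPS, 16.6, 14.5 and 16.9 CPM with TNP-KLH and 20.4, 24.3 and 16.3 CPM in control cells (log2 fold change −1.78 with SE 0.21 and adjusted p = 5.56e-04 by edgeR). GSONMG00028110001 differed between libraries of a condition, with 13.8, 28.4 and 21.5 CPM with TNP-LPS, 29.1, 65.1 and 39.7 CPM with TNP-KLH and 49.6, 150.4 and 78.6 CPM in control cells, and replicate 2 was the highest each time (log2 fold change −2.12 with SE 0.46 and adjusted p = 0.0114 by edgeR). GSONMG00028111001, next to it in the numbering of the annotation, had 13.4, 33.9 and 28.8 CPM with TNP-LPS and 48.4, 78.1 and 89.2 CPM in control cells (log2 fold change −1.50 with SE 0.38 and adjusted p = 0.0227 by edgeR). GSONMG00077876001 and GSONMG00004546001 also fell, with log2 fold changes of −1.19 and −1.10. The calls of GSONMG00028111001, GSONMG00077876001 and GSONMG00004546001 were each lost when any of several single libraries was left out, TNP-LPS replicate 3 among them, with adjusted p up to 0.116, 0.114 and 0.218 by edgeR over all settings tried.

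The NLRP3-like gene with the second highest mean CPM went the other way. GSONMG00075768001 had 70.7, 107 and 49.1 CPM with TNP-LPS, 62.2, 69.3 and 36.2 CPM with TNP-KLH and 36.8, 56.2 and 11.7 CPM in control cells. The conditions overlapped (log2 fold change 1.11 with SE 0.51 and adjusted p = 0.186 by edgeR), but within each replicate number the order was TNP-LPS, TNP-KLH, control, and the blocked fit gave an adjusted p of 3.61e-04 under TNP-LPS and 0.024 under TNP-KLH. It was 1 of the 3 members higher with TNP-LPS in the blocked fit only. The others were the NLRC3-like genes GSONMG00021533001, with 109, 82.2 and 29.1 CPM with TNP-LPS, 80.5, 104 and 35.2 CPM with TNP-KLH and 41.5, 38.2 and 28.6 CPM in control cells (blocked edgeR adjusted p = 0.0121), and GSONMG00014072001, with 3.73, 3.06 and 5.20 CPM with TNP-LPS and 1.31, 0 and 3.03 CPM in control cells (blocked edgeR adjusted p = 0.0332). GSONMG00021533001 and GSONMG00014072001 were picked out after their values were seen. The NLRP3-like gene with the most reads, GSONMG00022958001, had 50.9, 68.9 and 58.2 CPM with TNP-LPS and 91.7, 58.3 and 93.9 CPM in control cells and passed neither fit (log2 fold change −0.45 with SE 0.24 and adjusted p = 0.244 by edgeR; edgeR blocked adjusted p = 0.128).

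NLRP12-like genes, named after a mammalian inhibitor of NF-κB signalling, had the lowest median log2 fold change with TNP-LPS, −1.07 over 19 genes. GSONMG00016741001 was the member with the smallest p, at 7.92, 7.92 and 8.36 CPM in the TNP-LPS libraries, 24.2, 22.3 and 25.9 CPM in the TNP-KLH libraries and 24.4, 31.6 and 29.8 CPM in the control libraries (log2 fold change −1.82 with SE 0.18 and adjusted p = 2.78e-04 by edgeR). Its 3 TNP-LPS libraries were nearly equal and lay far below the others. GSONMG00025564001 had 27.2, 31.8 and 19.3 CPM with TNP-LPS, 50.4, 93.2 and 60.9 CPM with TNP-KLH and 69.3, 131 and 116 CPM in control cells (log2 fold change −2.02 with SE 0.33 and adjusted p = 0.00286 by edgeR). GSONMG00023937001 was low with both antigens, at 9.78, 6.44 and 11 CPM with TNP-LPS, 14.7, 9.83 and 12.8 CPM with TNP-KLH and 29.3, 37.6 and 24.4 CPM in control cells (log2 fold change −1.75 with SE 0.27 and adjusted p = 0.00216 by edgeR). GSONMG00048470001 had 18, 17.5 and 19.1 CPM with TNP-LPS, 32.2, 24.8 and 28.1 CPM with TNP-KLH and 35.8, 37.7 and 37.3 CPM in control cells (log2 fold change −1.02 with SE 0.17 and adjusted p = 0.0033 by edgeR), so all 3 conditions lay apart. GSONMG00056598001, GSONMG00072895001 and GSONMG00017207001 completed the 7 called lower, with log2 fold changes of −1.22, −1.10 and −1.30, and GSONMG00017207001 lost its call without TNP-LPS replicate 2, TNP-LPS replicate 3 or control replicate 1. The NLRP12-like gene with the most reads, GSONMG00029386001, had 40.1, 77.5 and 26 CPM with TNP-LPS, 144, 92.2 and 64.4 CPM with TNP-KLH and 177, 123 and 87.7 CPM in control cells, and it missed the threshold in the main test (log2 fold change −1.43 with SE 0.45 and adjusted p = 0.0561 by edgeR) and passed with the block (adjusted p = 2.68e-04). GSONMG00004785001 did likewise, with 34.6, 16.8 and 25.1 CPM with TNP-LPS and 71.2, 39.7 and 75.6 CPM in control cells (log2 fold change −1.29 with SE 0.40 and adjusted p = 0.0514 by edgeR; edgeR blocked adjusted p = 2.68e-05).

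Among the remaining kinds, 4 of 13 NLRP1-like genes fell. NLRP1 is an inflammasome sensor in mammals. The 13 genes summed to 78.6, 112.7 and 90.2 CPM with TNP-LPS, 154.5, 166.6 and 145 CPM with TNP-KLH and 197.7, 213 and 172.5 CPM in control cells, so the conditions did not overlap. GSONMG00002274001 was the clearest, with 11, 11.3 and 13 CPM in the TNP-LPS libraries, 26.4, 33 and 26.2 CPM in the TNP-KLH libraries and 37.5, 55.2 and 39.4 CPM in the control libraries (log2 fold change −1.90 with SE 0.22 and adjusted p = 4.55e-04 by edgeR). GSONMG00040153001 had 6.52, 6.65 and 4.92 CPM with TNP-LPS and 13.6, 15.8 and 14.4 CPM in control cells (log2 fold change −1.27 with SE 0.22 and adjusted p = 0.00386 by edgeR). GSONMG00016736001 and GSONMG00033695001 fell by less (log2 fold changes −1.06 and −0.93), and both calls were lost in most fits that left out a library. In the blocked fit 7 of the 13 were lower. GSONMG00014605001, GSONMG00046027001 and GSONMG00037393001 were among these 7 but not among the 4, with main adjusted p of 0.0517, 0.109 and 0.103 and blocked p of 8.37e-04, 0.00292 and 8.93e-06 by edgeR. The NLRP1-like genes GSONMG00027932001, GSONMG00038901001, GSONMG00070333001 and GSONMG00011440001 passed neither fit, with log2 fold changes of −0.70 to −0.22.

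NOD1 and NOD2, the receptors for bacterial cell wall fragments in mammals, had few genes here. Among the NOD1-like genes, GSONMG00038048001 had 7.45, 8.66 and 13.3 CPM in the TNP-LPS libraries, 14.2, 14.8 and 24.4 CPM in the TNP-KLH libraries and 18.3, 26.9 and 29.1 CPM in the control libraries (log2 fold change −1.33 with SE 0.31 and adjusted p = 0.0167 by edgeR). It no longer passed without TNP-LPS replicate 1, TNP-LPS replicate 2 or control replicate 3. GSONMG00023743001 was lower in the blocked fit only (log2 fold change −0.96 with SE 0.42 and adjusted p = 0.157 by edgeR; edgeR blocked adjusted p = 0.00617), and GSONMG00047677001 passed neither (log2 fold change −0.40 with SE 0.51 and adjusted p = 0.661 by edgeR). Neither NOD2 gene was called: GSONMG00045038001 had 26.9, 25.1 and 24.7 CPM with TNP-LPS, 39.4, 33.3 and 22.5 CPM with TNP-KLH and 26.6, 26.4 and 17.7 CPM in control cells (log2 fold change 0.12 with SE 0.25 and adjusted p = 0.804 by edgeR), and GSONMG00045039001 had 8.07, 10.8 and 9.28 CPM with TNP-LPS, 12, 13.7 and 9.05 CPM with TNP-KLH and 9.61, 7.52 and 5.83 CPM in control cells (log2 fold change 0.30 with SE 0.26 and adjusted p = 0.512 by edgeR). These were 2 of the 14 members whose fold change with TNP-LPS was not below 0, although that of GSONMG00045038001 was below 0 without TMM factors and without control replicate 3. Whether the NOD1-like and NOD2 genes differed from each other in response was not tested. The single NLRX1-like gene, GSONMG00079491001, named after a mitochondrial member of the family, was at 14.6, 14.6 and 7.43 CPM with TNP-LPS and 21.3, 18.9 and 13.9 CPM in control cells (log2 fold change −0.57 with SE 0.38 and adjusted p = 0.367 by edgeR; edgeR blocked adjusted p = 0.0328).

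No member passed the edgeR test with TNP-KLH: 0 of 133 rose and 0 fell against control, where 0.760% of all genes were called higher and 0.117% lower. At an unadjusted p under 0.05 the test gave 1 member higher and 10 lower, with no share over all genes counted. The blocked fit called 2 members higher and 8 lower, against 6.05% and 4.23% of all genes, and DESeq2 called 0 higher and 2 lower, against 3.13% and 1.34%. Every TNP-KLH library lay above every control library in 3 members and below in 11, where these shares were 9.67% and 8.72% over all genes. The median log2 fold change was 0.0185 over the members and −0.0345 over all genes. By subfamily the medians were 0.0974 for NLRC3-like, −0.115 for NLRP3-like, −0.369 for NLRP12-like and −0.337 for other members.

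The 2 members that DESeq2 called lower with TNP-KLH were the NLRC3-like gene GSONMG00078396001, at 28.2, 35.3 and 40 CPM with TNP-KLH and 69.9, 101 and 98.7 CPM in control cells, and the NLRP12-like gene GSONMG00023937001, at 14.7, 9.83 and 12.8 CPM with TNP-KLH and 29.3, 37.6 and 24.4 CPM in control cells. Their log2 fold changes were −1.38 (SE 0.35) and −1.29 (SE 0.27), with adjusted p of 0.106 and 0.0618 by edgeR and 4.26e-04 and 0.00211 with the block. The TNP-KLH libraries lay below all control libraries for both genes. The blocked fit added GSONMG00002274001, GSONMG00006142001, GSONMG00017207001, GSONMG00028110001, GSONMG00028111001 and GSONMG00066186001 as lower, and GSONMG00075768001 and GSONMG00021533001 as higher. The comparisons with TNP-LPS and with TNP-KLH used the same control libraries.

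Compared directly, 7 members were lower under TNP-LPS than under TNP-KLH by edgeR and 0 were higher, against 0.745% lower and 2.12% higher over all genes. At an unadjusted p under 0.05 edgeR gave 49 members lower and 0 higher, with no share over all genes counted. The blocked fit called 43 members lower and 0 higher, against 5.94% and 8.49% of all genes, and DESeq2 called 21 lower and 0 higher, against 2.30% and 5.03%. The count was 0 without the 3 libraries numbered 2, and also 0 without any single TNP-KLH library, TNP-LPS replicate 1 or TNP-LPS replicate 2. In these fits edgeR called 0 of all genes higher and at most 4 lower, so nearly all calls were lost and not only those of the members. All 7 also fell against control, in a comparison that used the same TNP-LPS libraries. They were the NLRC3-like genes GSONMG00006142001, GSONMG00053666001 and GSONMG00033692001, the NLRP3-like genes GSONMG00036772001 and GSONMG00054925001, the NLRP12-like gene GSONMG00016741001 and the NLRP1-like gene GSONMG00002274001. The largest difference was that of GSONMG00036772001 (log2 difference TNP-LPS over TNP-KLH −1.70, SE 0.22, adjusted p = 0.0176 by edgeR) and the smallest that of GSONMG00053666001 (−1.17, SE 0.24, adjusted p = 0.0376), which had 27.2, 21.2 and 30.6 CPM with TNP-KLH. GSONMG00033692001, at 19.8, 17.7 and 23.2 CPM with TNP-KLH, was nearest to the threshold (adjusted p = 0.0492). Without TMM factors edgeR called 202 of all genes higher and 253 lower, against 673 and 236 with them, and again 7 members lower. The median log2 difference was −0.541 over the members and −0.0341 over all genes.

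**Figure D3:**
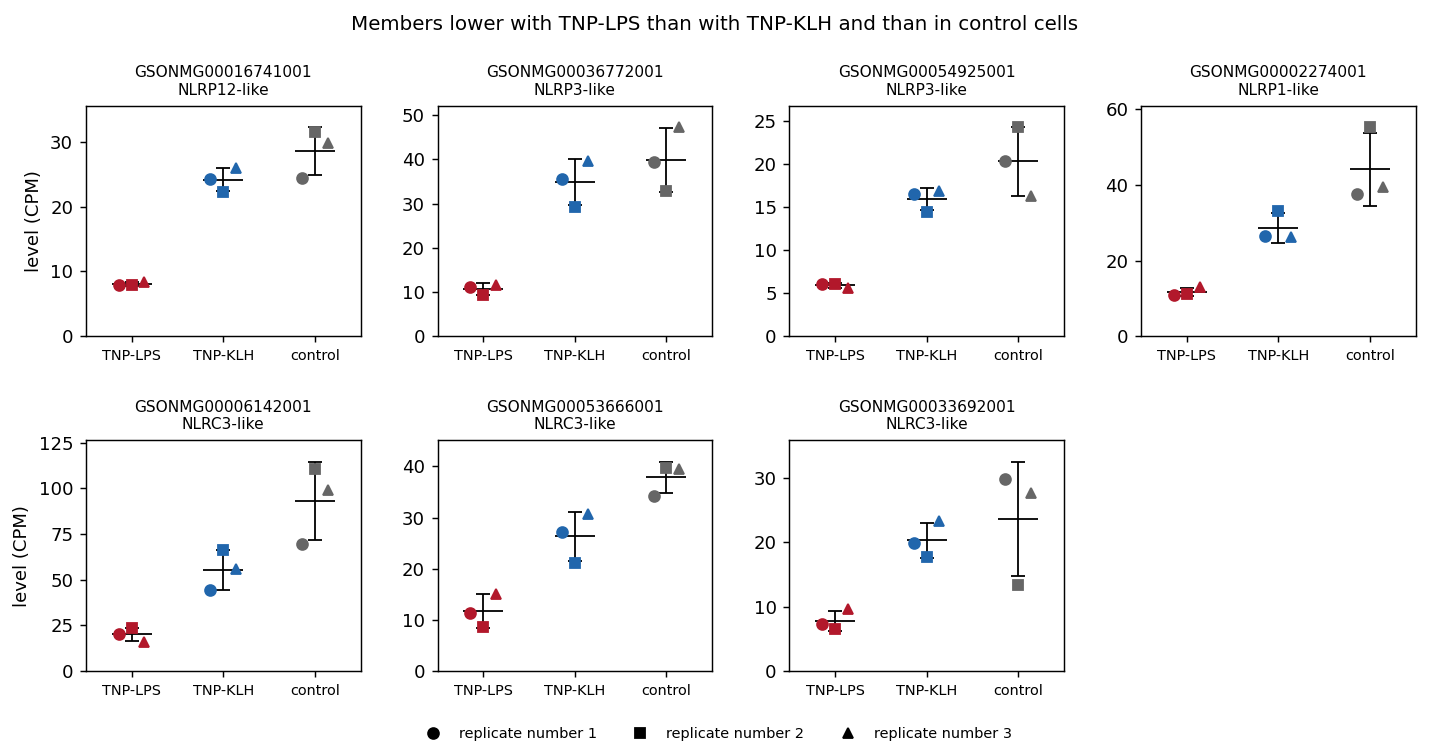
Level in CPM (y axis) of the 7 members lower under TNP-LPS than in both other conditions, with 1 point per library, its shape giving the replicate number, and bars for the mean and SD of the 3 libraries. In each gene, chosen by tests on these libraries, the 3 TNP-LPS points lie below all points of TNP-KLH and of control. GSONMG00016741001 had 7.92 to 8.36 CPM with TNP-LPS.

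How members varied among themselves was described by splitting the spread of log2 CPM over the 9 libraries into parts for condition, replicate number and the rest. The condition took a median of 49.9% of the spread over the members and 33.3% over all genes, the replicate number 23.7% against 28.4%, and the rest 13.8% against 22.5%. In 48 of 133 members (36.1%) the number took more than the condition, against 46.9% of all genes. Of the 4 genes described as NLRC5, in mammals the transactivator of MHC class I genes, 3 with consecutive identifiers were of this kind. They were highest in the libraries numbered 1 and lowest in those numbered 3 in every condition. Whether these 3 are parts of 1 gene was not tested. The remaining NLRC5 gene, GSONMG00060411001, averaged 1.78 reads per library, with 1.55% of its spread by number and 12.3% by condition. GSONMG00026925001 had 22.8, 6.44 and 6.31 CPM with TNP-LPS, 37.5, 22.9 and 10.8 CPM with TNP-KLH and 36.6, 19.6 and 5.76 CPM in control cells. GSONMG00026926001 had 13.8, 4.54 and 3.34 CPM with TNP-LPS, 24.5, 17.3 and 6.43 CPM with TNP-KLH and 27, 16 and 4.12 CPM in control cells. GSONMG00026927001 had 29.5, 10.7 and 7.43 CPM with TNP-LPS, 66.1, 39.9 and 15.4 CPM with TNP-KLH and 77.4, 76.5 and 11.4 CPM in control cells. The libraries numbered 3 were thus low even without antigen. None of the 3 passed the main test with TNP-LPS (edgeR adjusted p = 0.508, 0.353 and 0.156), and all 3 were lower in the blocked fit (adjusted p = 0.0443, 0.00566 and 2.91e-04).

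**Figure D4:**
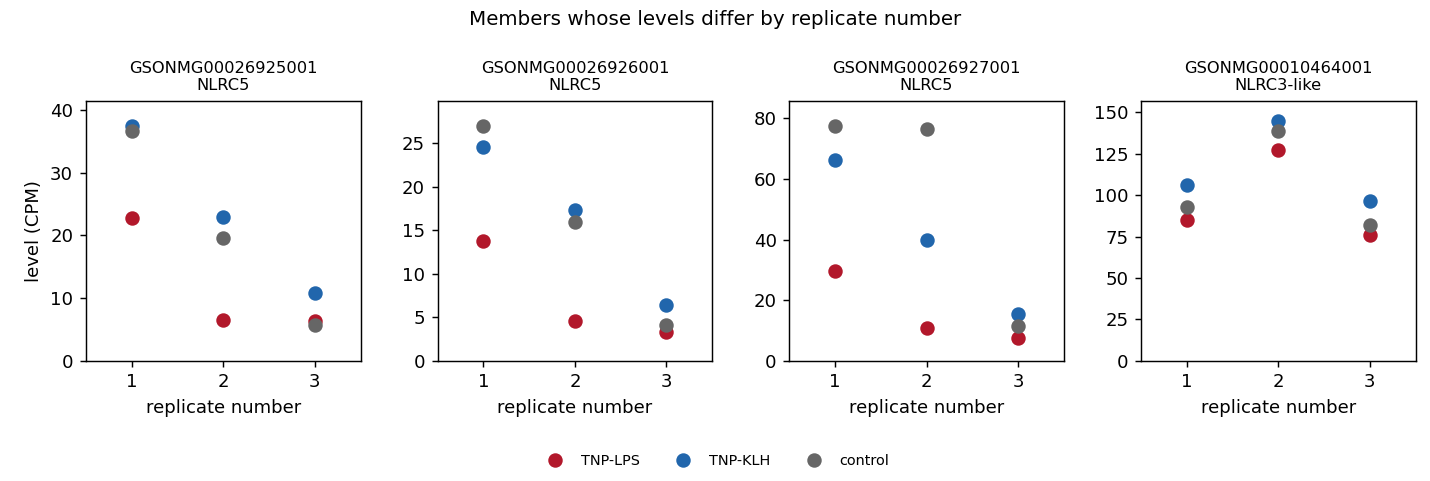
Level in CPM (y axis) of 3 NLRC5 genes and of the NLRC3-like gene GSONMG00010464001 by replicate number (x axis), with 1 point per library coloured by condition. The libraries numbered 1 were highest for NLRC5, up to 77.4 CPM in control cells for GSONMG00026927001, and those numbered 2 were highest for GSONMG00010464001, up to 144.5 CPM with TNP-KLH.

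The highest share was that of the NLRC3-like gene GSONMG00077098001, where the replicate number took 98.2% of the spread. It had 4.5, 0 and 0 CPM with TNP-LPS, 6.43, 0 and 0.109 CPM with TNP-KLH and 10.1, 0 and 0 CPM in control cells. Reads were thus present in all 3 libraries numbered 1 and absent or nearly absent elsewhere. It was the only member with 0 reads in all libraries of 1 number and at least 10 in all libraries of another (0.752% of members against 0.186% of all genes). The NLRP3-like gene GSONMG00030460001 came next, with 91.8% of its spread by number and 7.39% by condition, and the NLRC3-like gene GSONMG00010464001 had 85.8% by number. GSONMG00030460001 was lower with TNP-LPS against control in the blocked fit only (edgeR adjusted p = 0.63; edgeR blocked adjusted p = 0.0284). At the other end, condition took 98.2% of the spread of the NLRP12-like gene GSONMG00016741001 and the number 0.616%. GSONMG00030460001, GSONMG00077098001 and the called members beyond the 12 with the smallest p were picked out after their values were seen.

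The most alike profiles within each subfamily were sought among members with a mean of at least 20 reads per library, by Pearson's r of log2 CPM over the 9 libraries, which share depth and condition. The NLRC3-like pair GSONMG00042819001 and GSONMG00055139001 had r = 0.996, where the median over NLRC3-like pairs was 0.551. GSONMG00042819001 had 28.4, 28.2 and 23.5 CPM with TNP-LPS, 40.9, 36.1 and 42.1 CPM with TNP-KLH and 42.6, 31.2 and 32.8 CPM in control cells, and GSONMG00055139001 had 4.97, 4.96 and 4.18 CPM with TNP-LPS, 6.76, 6.37 and 7.19 CPM with TNP-KLH and 7.48, 5.43 and 5.68 CPM in control cells. In both genes every TNP-LPS library lay below every other library, and neither passed an edgeR fit against control. The NLRP3-like pair GSONMG00010468001 and GSONMG00045493001 had r = 0.984 (median 0.356), the NLRP12-like pair GSONMG00016741001 and GSONMG00048470001 r = 0.945 (median 0.466), and the NLRC5 genes GSONMG00026925001 and GSONMG00026926001 r = 0.987 (median 0.402 over other members). With TNP-LPS against control, GSONMG00045493001 missed the threshold in the main edgeR fit (adjusted p = 0.0799). It passed in the blocked edgeR fit (adjusted p = 0.0229) and by DESeq2 (adjusted p = 0.0479), as lower. Shared reads of near-identical copies would also give alike profiles, and this was not tested.

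Genes that work with NOD-like receptors were followed through a list of 86 genes chosen by their descriptions. With TNP-LPS 12 of them rose and 3 fell against control by edgeR, where 10% and 6.73% of all genes did, and 17 rose and 10 fell in the blocked fit, against 16.3% and 14.2%, with a median log2 fold change of −0.0791 over the list and −0.0901 over all genes. With TNP-KLH 2 rose and 0 fell (14 and 2 in the blocked fit, 7 and 1 by DESeq2, 13 and 2 at an unadjusted p under 0.05 by edgeR), with a median of 0.168, where over all genes 0.760% and 0.117% were called, 6.05% and 4.23% in the blocked fit, and 3.13% and 1.34% by DESeq2. Between TNP-LPS and TNP-KLH edgeR called 0, with 3 higher and 3 lower at an unadjusted p under 0.05, 3 and 7 in the blocked fit and 1 and 0 by DESeq2. Over all genes edgeR called 2.12% higher and 0.745% lower, the blocked fit 8.49% and 5.94%, and DESeq2 5.03% and 2.30%. Interleukin-1 beta, the cytokine that caspase-1 matures, rose with TNP-LPS in 3 of 4 genes. GSONMG00003908001 had 8.70, 34.2 and 18.2 CPM with TNP-LPS, 1.2, 6.73 and 3.82 CPM with TNP-KLH and 0.506, 1.15 and 0.545 CPM in control cells (log2 fold change 4.80 with SE 0.74 and adjusted p = 0.00191 by edgeR). GSONMG00037660001 had 22.4, 32.1 and 22.8 CPM with TNP-LPS, 12.2, 18.1 and 5.12 CPM with TNP-KLH and 4.85, 4.91 and 2.10 CPM in control cells (log2 fold change 2.71 with SE 0.48 and adjusted p = 0.00393 by edgeR). With TNP-KLH both genes passed in the blocked fit and not in the main test (blocked edgeR adjusted p = 5.33e-04 and 0.00215). No kept gene was described as interleukin-18 or gasdermin, the pore protein of inflammasomes.

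All 3 genes for TRAF3, an adaptor of antiviral and TNF receptor signalling, rose with TNP-LPS. In the main edgeR fit 2 of them were the only listed genes called with TNP-KLH. Of all genes that fit called 241 higher with TNP-KLH. At most 1 was called higher when any single library except TNP-LPS replicate 1 was left out. The 2 TRAF3 calls with TNP-KLH were thus not both kept in those fits. GSONMG00068560001 had 25.6, 35 and 17.6 CPM with TNP-LPS, 27, 27.9 and 21.7 CPM with TNP-KLH and 9.00, 5.85 and 8.25 CPM in control cells, with log2 fold changes of 1.76 (SE 0.28, by edgeR adjusted p = 0.0026) with TNP-LPS and 1.73 (SE 0.28, adjusted p = 0.0378) with TNP-KLH. GSONMG00068562001 had 28.4, 36.4 and 18.5 CPM with TNP-LPS, 27.2, 27.8 and 27.8 CPM with TNP-KLH and 9.51, 4.18 and 8.79 CPM in control cells, with log2 fold changes of 1.89 (SE 0.34, adjusted p = 0.00426) and 1.88 (SE 0.34, adjusted p = 0.0414). Both antigens thus gave like levels, well above control. The kinase RIPK2, which carries the signal of NOD1 and NOD2, rose with TNP-LPS in 2 of 4 genes, of which GSONMG00058388001 had 26.9, 18.3 and 20.1 CPM with TNP-LPS, 23.1, 11 and 21.6 CPM with TNP-KLH and 10.2, 2.40 and 8.95 CPM in control cells (log2 fold change 1.59 with SE 0.48 and adjusted p = 0.0475 by edgeR). Of 5 genes for caspase-8, GSONMG00008032001 rose, with 38, 41.6 and 30.3 CPM with TNP-LPS, 23.3, 37.1 and 36 CPM with TNP-KLH and 14.3, 11.9 and 18.2 CPM in control cells (log2 fold change 1.31 with SE 0.25 and adjusted p = 0.00651 by edgeR). The RIPK2 and caspase-8 genes were picked out after their values were seen.

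The 3 listed genes that fell with TNP-LPS included TXNIP, which binds NLRP3 in mammals. Its gene GSONMG00062121001 had 61.5, 51.2 and 49.6 CPM with TNP-LPS, 80.4, 129.5 and 84.6 CPM with TNP-KLH and 151, 250.4 and 146 CPM in control cells (log2 fold change −1.75 with SE 0.29 and adjusted p = 0.00277 by edgeR). The gene GSONMG00005519001 for XIAP, a ubiquitin ligase of NOD2 signalling, had 8.07, 9.72 and 11.5 CPM with TNP-LPS, 10.5, 9.74 and 12.2 CPM with TNP-KLH and 19.8, 18 and 23.1 CPM in control cells (log2 fold change −1.05 with SE 0.21 and adjusted p = 0.00845 by edgeR), so every library of either antigen lay below every control library. GSONMG00010266001, for the kinase subunit IKK alpha, had 25.6, 44.6 and 26 CPM with TNP-LPS and 50.2, 68.5 and 60.8 CPM in control cells (log2 fold change −0.90 with SE 0.26 and adjusted p = 0.0398 by edgeR). The words used for the list also took in 2 genes for XIAP-associated factor 1, a partner of XIAP and not a NOD-like receptor adaptor. No kept gene was described as the MHC class II transactivator, itself a member of the receptor family.

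**Figure D5:**
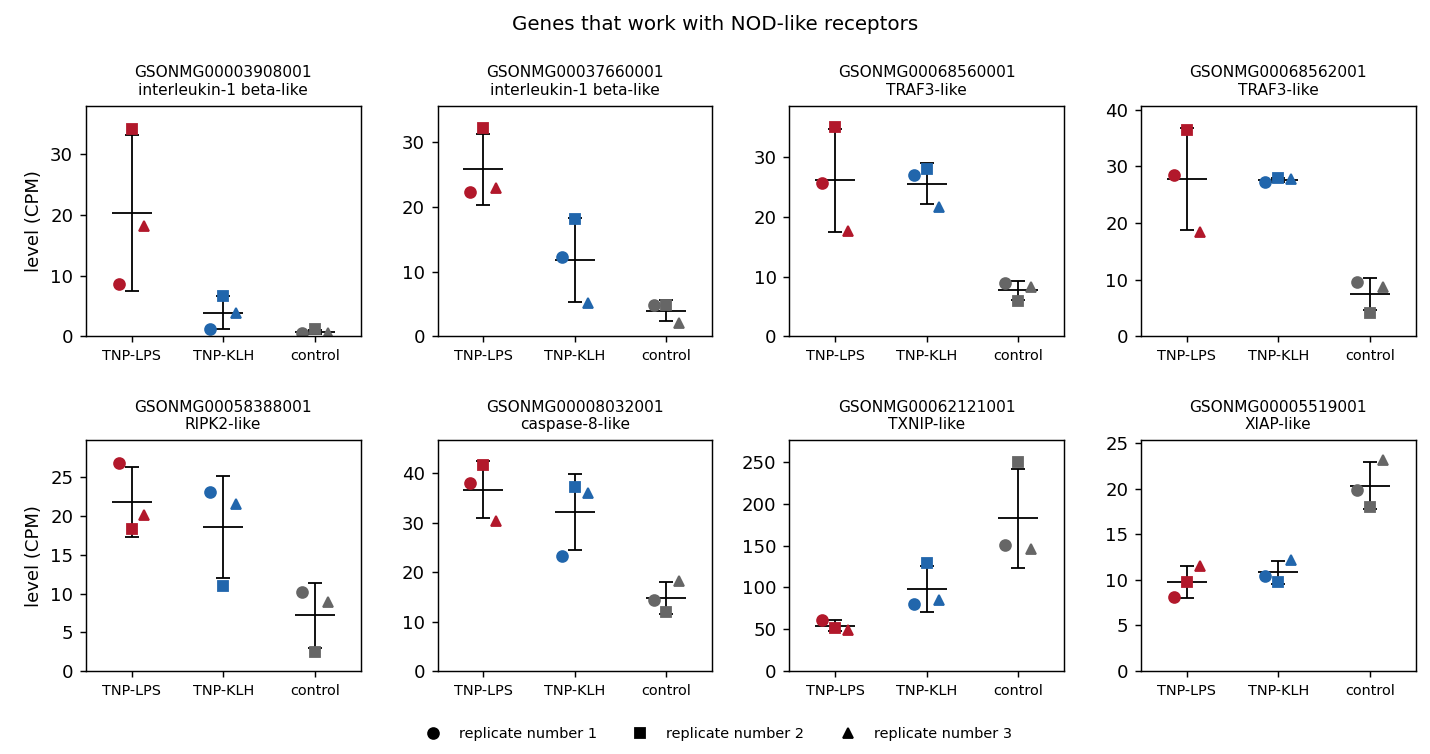
Level in CPM (y axis) of 8 genes that work with NOD-like receptors, with 1 point per library, its shape giving the replicate number, and bars for the mean and SD of the 3 libraries of TNP-LPS, TNP-KLH and control. The first 6 genes rose with TNP-LPS, as interleukin-1 beta GSONMG00037660001 did to between 22.4 and 32.1 CPM, and the TXNIP-like and XIAP-like genes fell.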

How the data were processed

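Reads were trimmed, mapped by the authors with TopHat to the Genoscope trout genome and counted per gene with SAMtools and HTSeq. The sources used here give neither versions nor the strand setting. The authors deposited these raw counts in 3 tables that repeat the same 9 libraries, with DESeq means, fold changes and p-values that were not used. Counts of 31691 genes that reached 5 reads in any library (median total 9237306) were tested with edgeR 4.0.16 (R 4.3.3, TMM factors, glmQLFTest, threshold 0.05) in 1 model of 3 groups (common BCV 0.446, prior degrees of freedom 3.83), and with DESeq2 1.42.0 as an alternative. CPM values were scaled by the TMM factors (prior count 2 on the log2 scale). The fit was run on simulated counts with known changes. These had a smaller spread than the data and no effect of replicate number, so they do not show the power of the test here. No 2 libraries of the same condition were copies of each other (chi-square per gene at least 25.2), and pairs from different conditions were not compared in this way. Plots were made in Python 3.11.15 with matplotlib 3.10.9.

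Same-numbered libraries of different groups had correlated deviations from their group means (r = 0.227 to 0.646 in all 9 pairs, −0.499 to 0.0345 in the 18 pairs with different numbers), and the numbers were taken as pairing the samples on that ground alone. The lowest was control replicate 2 with TNP-LPS replicate 2 (r = 0.227). Some members departed from the numbering at number 2. In control, TNP-LPS and TNP-KLH replicate 2, GSONMG00039356001 had 0, 68 and 45 reads and GSONMG00063342001 had 0, 16 and 23. GSONMG00014072001, higher in the blocked fit only, had 0, 29 and 20. These members were picked out after their values were seen. Whether the pairing holds for number 2 was not tested.

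The members, subfamilies and lists were chosen with earlier results of these data known. Members were named if called (up to 12 per comparison and direction by p), listed as differential in the study, among the 3 with the highest mean CPM in each large subfamily, of other kinds with a mean count of at least 10, or in the most alike pair of a subfamily, and of the listed genes the 4 with the smallest p per comparison and direction. Other alternatives were no TMM factors, no filter on low counts, filterByExpr, 2 groups only, leaving out each library and leaving out the 3 numbered 2. None of the members matched the RefSeq table by identifier (0 of 133), so neither positions, gene lengths nor sequences were used, and reads are not compared between genes.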

Additional observations from a re-analysis of the deposited data

Results flagged for a closer look

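For 7 members the change with TNP-LPS against control differed from the change with TNP-KLH against control. Since both changes share the control libraries, the difference is the comparison of TNP-LPS with TNP-KLH, which edgeR tested directly, and it was negative in all 7. On the log2 scale it was −1.70 for the NLRP3-like gene GSONMG00036772001, whose own changes were −1.90 with TNP-LPS and −0.20 with TNP-KLH, and −1.43 for the NLRP3-like gene GSONMG00054925001 (−1.78 and −0.35). For the NLRP12-like gene GSONMG00016741001 it was −1.58 (−1.82 and −0.24). It was −1.46 for GSONMG00006142001, −1.37 for GSONMG00033692001 and −1.17 for GSONMG00053666001, all NLRC3-like, and −1.27 for the NLRP1-like gene GSONMG00002274001. In each of the 7 the 3 TNP-LPS libraries lay below the 3 TNP-KLH libraries, which the choice by a test on the same libraries favours. The calls were lost when any single TNP-KLH library was left out, with edgeR adjusted p up to 0.230 over the settings tried. Without a TNP-KLH library edgeR called 0 of all genes higher and at most 2 lower.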

How the results depend on the processing

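The members' count called lower with TNP-LPS against control was 28, and it was 47 with the replicate block, 16 without the 3 libraries numbered 2, and 18 to 27 when 1 library was left out, with 18 without TNP-LPS replicate 3. Over all genes the count lower was 2133, 4489, 756 and 1238 to 1885 in the same order, with 1525 without TNP-LPS replicate 3. The members' count higher was 0, and 3 with the block. With TNP-KLH against control, 0 members were lower, against 2 by DESeq2, 8 with the replicate block and 0 to 1 without 1 library (1 without TNP-LPS replicate 1), and 0 were higher, against 2 with the block. Over all genes the 37 lower became 422, 1340 and 0 to 53 in the same order, with 53 without TNP-LPS replicate 1. The 241 higher over all genes became 1918 with the block and 0 to 302 without 1 library. For TNP-LPS against TNP-KLH the 7 lower became 21 by DESeq2, 43 with the replicate block, 3 with only the 2 groups in the fit, 0 without the 3 libraries numbered 2 and 0 to 7 without 1 library. Over all genes the 236 lower became 725, 1883, 32, 0 and 0 to 272 in the same order. The blocked fit used the pairing by replicate number. Without TMM factors the members averaged 1961 summed CPM with TNP-LPS, and the median log2 fold change of all genes with TNP-LPS against control moved to −0.309. Relative to the median of all genes, the members' median was −0.455 with TMM factors and −0.492 without, with 28 and 34 members lower. The split of all genes changed from 3181 higher and 2133 lower with TMM factors to 2305 and 2860 without, and for TNP-LPS against TNP-KLH from 673 and 236 to 202 and 253. Of the members followed singly (56 with TNP-LPS against control, 10 with TNP-KLH against control and 7 with TNP-LPS against TNP-KLH), 982 values under the alternatives kept direction and side of the threshold, 130 lost a call, 50 gained one, and 6 changed sign, all in 3 members not called with TNP-LPS against control. The log2 fold change of the NOD2 gene GSONMG00045038001 was −0.10 without TMM factors and −0.0506 to 0.23 without 1 library, that of GSONMG00010464001 −0.38 to 0.15 and that of GSONMG00038901001 −0.69 to 0.17 without 1 library. Of the 28 members, 14 were called lower under every alternative. The causes were not tested.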

Other observations

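Members with consecutive identifiers in the annotation tended to have alike profiles, a pattern looked at after the data were seen. Over 17 such pairs the median Pearson's r of log2 CPM over the 9 libraries was 0.72, where it was 0.194 over the 12978 consecutive pairs of all genes kept. Nearly all of these member pairs lay within a subfamily. Over all pairs within a subfamily, consecutive or not, the median was 0.551 for NLRC3-like, 0.356 for NLRP3-like, 0.466 for NLRP12-like and 0.402 for other members. These medians used members with a mean of at least 20 reads. How much of the likeness goes with the subfamily was not tested. The values ranged from −0.538, for the NLRP3-like genes GSONMG00052047001 and GSONMG00052048001, to 0.987, for the NLRC5 genes GSONMG00026925001 and GSONMG00026926001. Gene positions were not used, pairs share libraries and depth, and reads shared by near-identical copies were not tested.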
